A study of Saccharomyces cerevisiae BY4741 with 2 samples.

Results

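Ribosome biogenesis factors are the proteins that cut, modify, fold and package ribosomal RNA but are not part of the finished ribosome. The set described here has 40 genes of the budding yeast Saccharomyces cerevisiae, chosen by name. Of these, 39 were found, each on 1 row of the deposited tables, among 2211 genes that could be compared between the strains. MPP10 was not analysed here. The genes comprised 16 that act on the small subunit, 18 that act on the large subunit, 2 of the box H/ACA small nucleolar ribonucleoprotein (GAR1 and NOP10) and 3 that act in both subunits or that were not assigned (RRP14, RRT14 and NOP13). RNA was sequenced with strand information from ribosome-depleted total RNA of 2 haploid MATa strains, grown at 30 °C to mid-log phase in rich medium with 2% glucose. The wild type carried his3Δ1, leu2Δ0, met15Δ0 and ura3Δ0. The deletion strain carried dbp2::KanMx, which replaces the gene of the DEAD-box RNA helicase Dbp2, together with leu2Δ0, ura3Δ0 and his3Δ0, and its label also gives TRP1, met- and lysΔ. The strains shared leu2Δ0 and ura3Δ0, but the lysine marker was given for the deletion strain alone, so DBP2 and the other genotype differences cannot be told apart. The labels name 2 replicates per strain, whereas 1 value per gene and strain was deposited. No difference below therefore has a replicate check, an error or a test.

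Ribosome assembly starts in the nucleolus, where RNA polymerase I makes a long precursor that holds the RNAs of both subunits. The small-subunit processome, built around the U3 small nucleolar RNA and several UTP complexes, folds and cuts the part that becomes the small subunit. A separate series of factors assembles the large subunit, accompanies it through the nuclear pore and leaves it in the cytoplasm. Box H/ACA particles convert chosen uridines of the RNA to pseudouridine. In budding yeast the genes of these factors form a regulon that is known to be transcribed together and to follow growth rate, and many of their promoters carry a PAC element, an RRPE element or both. In the yeast literature Dbp2 is associated with ribosomal RNA processing as well as with messenger RNA. These data allow the transcripts of the assembly factors to be compared between wild type and the deletion strain, whose labels also differ at other genes.

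The shared promoter elements were read first, from the R64 reference genome. They are known for genes of this regulon, so their presence here describes the set and is not a new result. In windows from 250 bases before to 50 bases after the first coding base, the PAC element (GCGATGAG, either strand) was found in 24 of 40 windows, against 3.93% of all 6001 protein-coding windows. The RRPE element (AAAAATTTT, either strand) was in 25 of 40 (62.5%), against 6.98% of all. Both elements were in 16 windows (against 1.65% of all) and neither in 7, those of NOP10, SQT1, UTP18, NOP9, URB2, DHR2 and ESF2. PAC was present for 10 of 17 small-subunit windows and 12 of 18 large-subunit windows, and for neither of the box H/ACA genes. The PAC matches began 77 to 190 bases before the start codon (median 116.5), and the RRPE matches 108 to 173 bases before it (median 139). In 14 of the 16 windows with both, RRPE was the farther from the start codon, and between 0 and 28 bases lay between the nearest pair (median 5.5). No PAC match overlapped an RRPE match, while RRPE matches on opposite strands overlapped each other where the run was one base longer. The stretches below come from members at both ends of the ratio order and from IMP4, the partner of IMP3, and show the elements in place. Capitals mark the PAC and RRPE matches, and each stretch is written 5′ to 3′ on the strand of its gene. They are IMP3 at chrVIII:393437-393474 (plus strand), RPF1 at chrVIII:281369-281416 (plus strand), IMP4 at chrXIV:485444-485501 (plus strand), NOP15 at chrXIV:418618-418656 (minus strand), NMD3 at chrVIII:443654-443705 (plus strand), KRR1 at chrIII:23460-23532 (minus strand) and GAR1 at chrVIII:283412-283451 (minus strand), all in R64.
IMP3: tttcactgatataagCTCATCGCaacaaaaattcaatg
RPF1: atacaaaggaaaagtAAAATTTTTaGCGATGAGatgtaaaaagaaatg
IMP4: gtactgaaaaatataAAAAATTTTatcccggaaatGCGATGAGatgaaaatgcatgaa
NOP15: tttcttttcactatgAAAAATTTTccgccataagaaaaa
NMD3: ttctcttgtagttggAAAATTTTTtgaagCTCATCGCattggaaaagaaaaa
KRR1: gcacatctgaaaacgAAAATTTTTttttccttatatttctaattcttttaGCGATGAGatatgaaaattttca
GAR1: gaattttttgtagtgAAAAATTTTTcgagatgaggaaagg

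**Figure D1:**
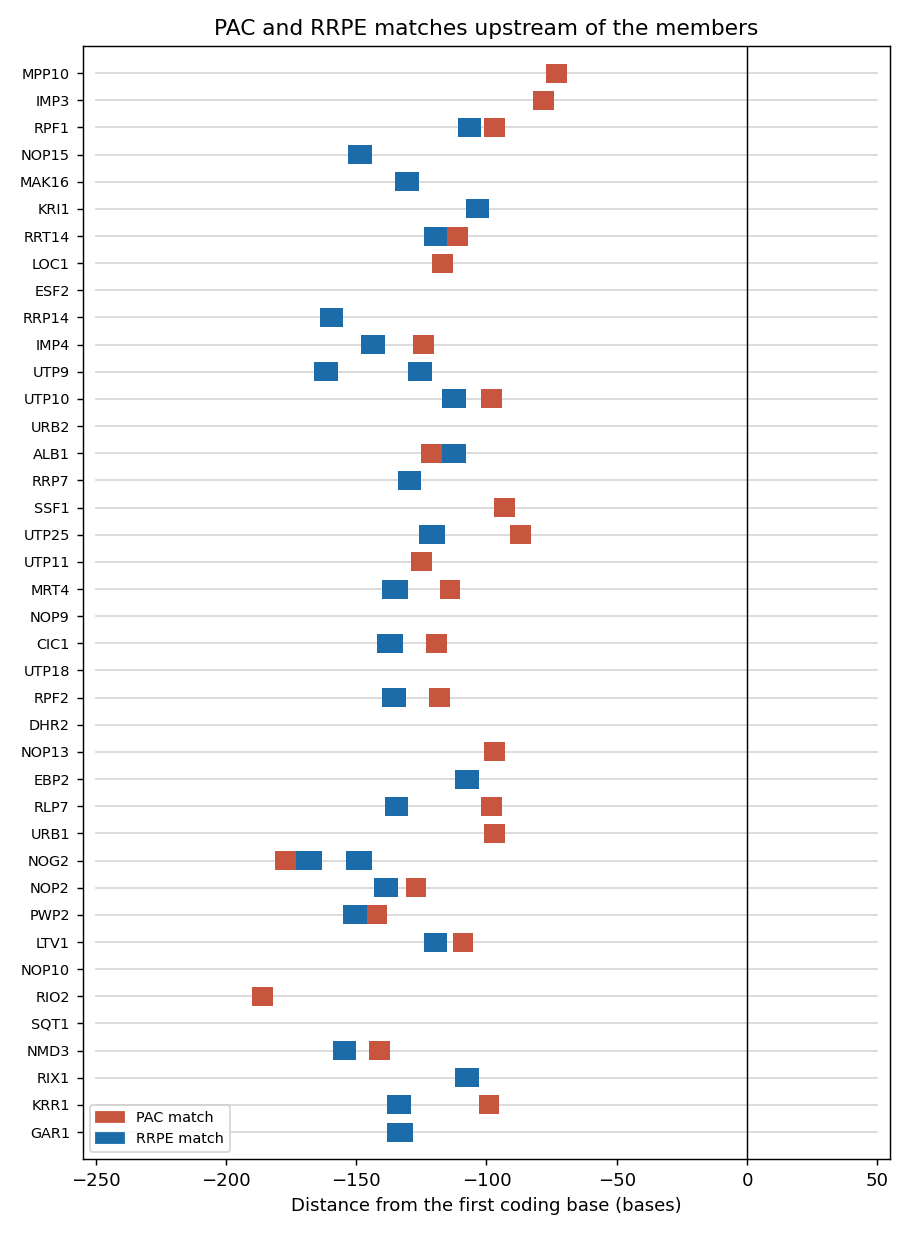
PAC (red) and RRPE (blue) matches in the window of each gene, with the distance from the first coding base in bases on the horizontal axis and genes ordered from the lowest ratio of deletion strain to wild type (bottom) to the highest, with MPP10, which has no ratio, at the top. PAC matches lie 77 to 190 bases and RRPE matches 108 to 173 bases before the start codon, and genes with and without them are found along the whole order.

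The strain labels were checked next. The highest of 3 DBP2 rows was 1539.7 FPKM (a read count divided by transcript length and library size) in wild type, against 2.52 FPKM in the deletion strain. Both strains had 433 FPKM of STE2, the receptor gene of a cells, and no more than 2.56 FPKM of STE3, that of alpha cells. Other genes of a cells were lower in the deletion strain. BAR1 was 141 FPKM in wild type against 32.2 FPKM, STE6 462 FPKM against 357 FPKM and MFA2 915 FPKM against 737 FPKM. The medians of the 2211 genes were 87.5 FPKM and 87.9 FPKM, but the sums over all rows were 5210210 FPKM in wild type against 1724410 FPKM in the deletion strain. The 10 highest rows held 79.3% of the sum in wild type and 56.9% in the deletion strain. The scaling between the strains therefore matters for every ratio. Setting the strains to equal sums over protein-coding genes raised the median log2 ratio of all genes by 0.46.

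As deposited, the median ratio of the biogenesis factors lay near wild type, with single members on both sides of it. Equal protein-coding sums moved this median log2 ratio to 0.49 and placed 32 of 39 members above wild type. As deposited, the log2 of (deletion strain + 1) / (wild type + 1) had a median of 0.03 over the 39 members, against -0.08 over all genes compared, and 22 members had the higher and 17 the lower value in the deletion strain (46.0% of all genes were higher). By the limit of 2-fold, 1 member was higher and 0 were lower, where 8.86% and 10.9% of all genes passed in these directions. Within 1.2-fold of wild type lay 19 of 39 members, against 27.9% of all genes. By a limit of 1.5-fold, 4 members were higher and 4 lower, against 18.6% and 23.7% of all genes. The quartiles of the members were -0.26 and 0.27, and those of all genes -0.56 and 0.43. In bulk RNA, less RNA per cell and fewer cells that express a gene cannot be told apart.

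Most members were well expressed, and level has to be considered because abundant genes had lower ratios in this dataset. In wild type the members ranged from 45.1 FPKM (URB2) to 3940.3 FPKM (NOP10), with a median of 282 FPKM, and in the deletion strain from 48.8 FPKM to 2826 FPKM by the same genes, with a median of 302 FPKM. Among all genes with a mean of 100 to 1000 FPKM, the median log2 ratio was -0.27, and 35.8% had the higher value in the deletion strain. The 33 members in this range had a median of 0.05, with 20 higher and 13 lower. In that range the 2-fold limit was passed upward by 6.63% and downward by 12.5% of all genes, against 1 and 0 of the 33 members. The difference of 0.31 between these medians was the same with equal protein-coding sums. That scaling multiplies every deletion-strain value by the same factor, so it could hardly change this difference. In the highest of 5 equal groups of genes by level, the median was -0.48 for the 442 genes and -0.10 for the 20 members among them. No test was possible with 1 value per strain, so whether the members stand apart from genes of their level was not tested.

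**Figure D2:**
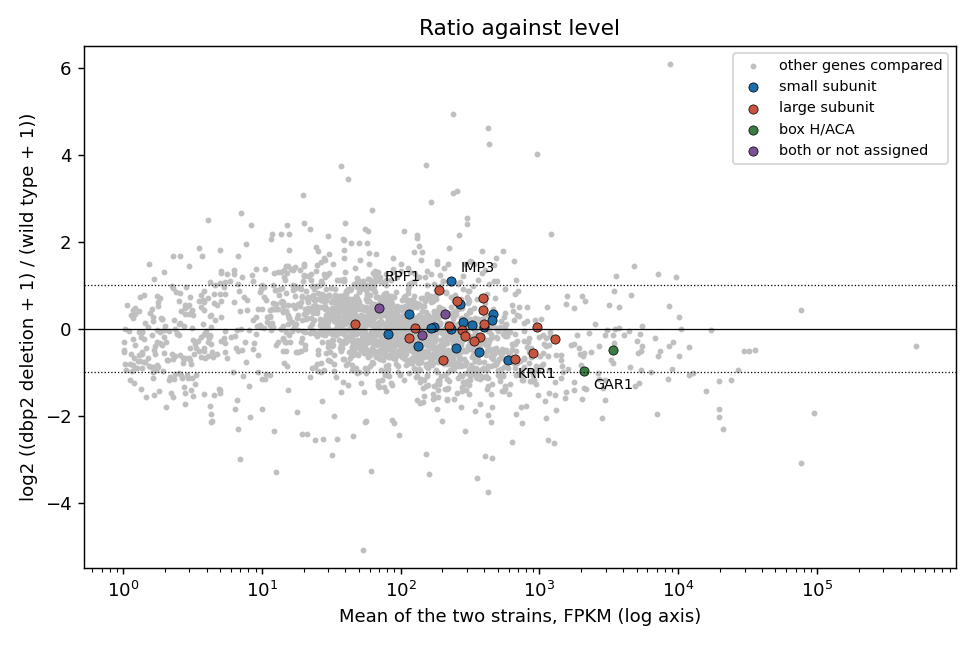
Log2 ratio of the deletion strain to wild type (pseudocount 1) against the mean level of both strains in FPKM (log axis), with 1 point per gene, for 2211 genes in grey and the 39 members in colour, and dotted lines at 2-fold. The ratios of the members range from -0.96 (GAR1) to 1.09 (IMP3), whereas other genes reach -5.08 and 6.09.

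Of the U3-bound complex of Imp3, Imp4 and Mpp10, the pair of genes with values was higher in the deletion strain, and MPP10 was not analysed here. IMP3, a protein that helps pair U3 RNA with the precursor, was 148 FPKM in wild type against 316 FPKM in the deletion strain. At 2.14-fold it was the highest ratio of the set and the only member past 2-fold as deposited. Its partner IMP4, a Brix-domain protein of the same U3 complex, was 408 FPKM and 517 FPKM, a 1.27-fold higher value. The levels of the pair were therefore closer in the deletion strain, where IMP4 was 1.64 times IMP3, than in wild type, where it was 2.76 times IMP3. The mitochondrial ribosomal protein gene MRPL6, divergent from IMP3 across 250 bases, went the other way, at 403 FPKM and 150.4 FPKM.

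The UTP genes showed small differences. In the UTP-A complex, which joins the precursor first, UTP9 was 424 FPKM in wild type against 485 FPKM in the deletion strain, and UTP10 was 266 FPKM and 297 FPKM. Their log2 ratios of 0.20 and 0.16 lay beside the 0.13 of NAN1, another UTP-A subunit from the wider pathway list. In UTP-B, UTP18 was 231 FPKM in both strains, while PWP2 was 151 FPKM and 114 FPKM, or 0.756 of wild type. UTP11, UTP25 and the UTP-C gene RRP7 lay between 1.03-fold and 1.06-fold of wild type. HIS4, the histidine synthesis gene 365 bases upstream of RRP7 on the same strand, was 7.86-fold lower in the deletion strain.

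The remaining small-subunit genes divided by gene. KRR1 and KRI1, whose proteins bind each other in yeast, had opposite directions. KRR1, an RNA-binding KH-domain factor, was 742 FPKM in wild type against 451 FPKM in the deletion strain (1.64-fold lower), and KRI1 was 216 FPKM and 321 FPKM (1.49-fold higher). Wild type had 3.44 times as much KRR1 as KRI1 RNA, and the deletion strain 1.41 times. The late factors were both lower. RIO2, an atypical kinase of the cytoplasmic small-subunit precursor, was 436 FPKM and 302 FPKM (1.44-fold lower), and LTV1, which acts on the same late particle, was 290.1 FPKM and 213 FPKM (1.36-fold lower). NOP9, a pumilio-type RNA-binding factor, was 165 FPKM and 168 FPKM, the DEAH-box helicase gene DHR2 was 84.3 FPKM and 77.8 FPKM, and ESF2 was 101 FPKM and 129 FPKM. Over the 16 small-subunit genes the median log2 ratio was 0.05, with 11 higher and 5 lower (14 and 2 with equal protein-coding sums, where 2 passed 2-fold upward).

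**Figure D3:**
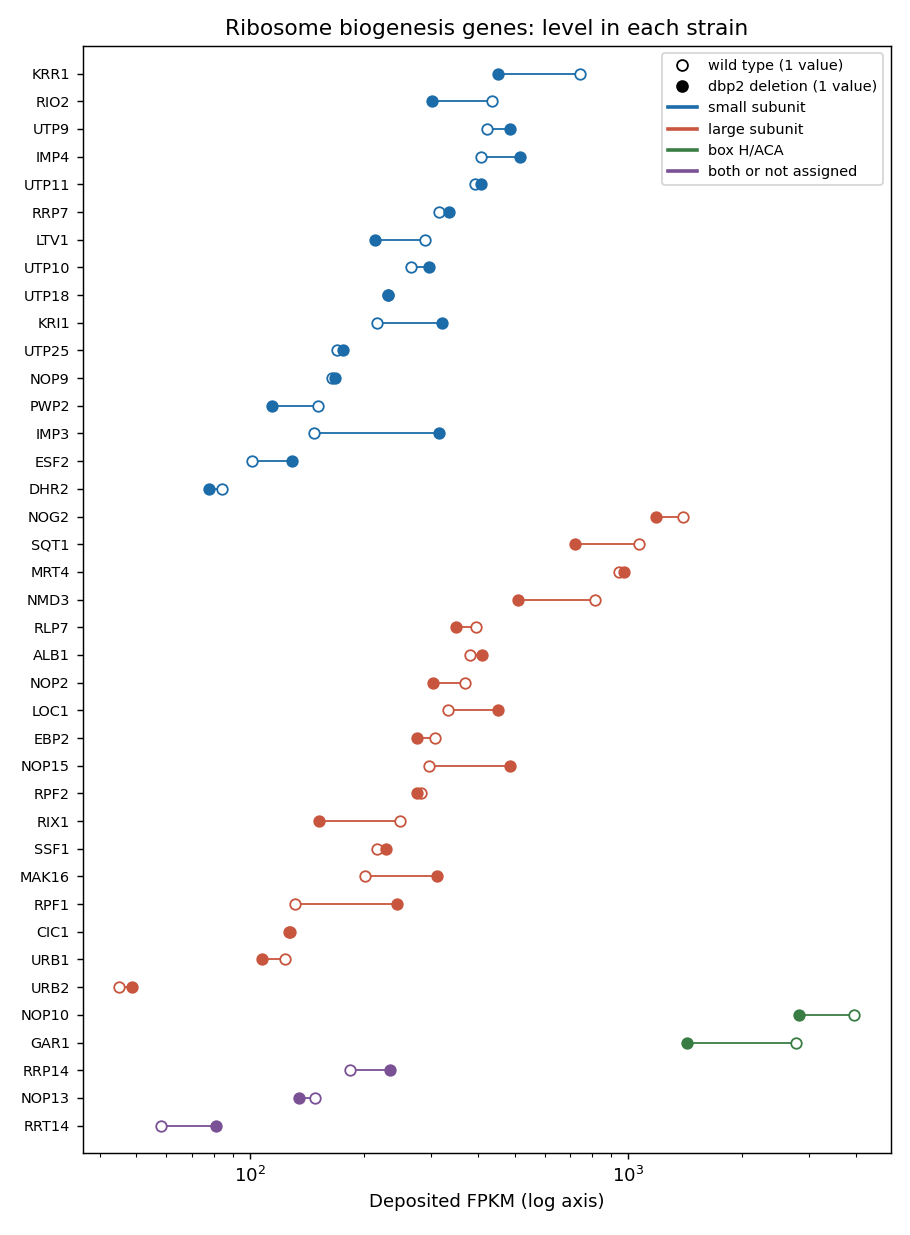
Level of each of the 39 genes in FPKM (log axis) in wild type (open circles) and the deletion strain (filled circles), 1 value each, with genes grouped by subunit and ordered by wild-type level. The widest gaps to the right belong to IMP3 (148 to 316 FPKM) and RPF1 (132 to 244 FPKM), and the widest to the left to GAR1 (2777 to 1425 FPKM).

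In the large-subunit group the highest ratios belonged to RPF1, NOP15, MAK16 and LOC1. RPF1, a Brix-domain protein of early large-subunit precursors, was 132 FPKM in wild type against 244 FPKM in the deletion strain (1.85-fold). NOP15, an RNA-recognition-motif protein, was 296 FPKM and 487 FPKM (1.64-fold), MAK16 was 201 FPKM and 312 FPKM (1.55-fold), and LOC1, also known for its part in ASH1 mRNA localisation, was 334 FPKM and 452 FPKM (1.36-fold). Several other large-subunit factors lay closer to wild type, in either direction. The scaffold gene URB1 was 124 FPKM in wild type against 108 FPKM, its partner URB2 45.1 FPKM against 48.8 FPKM, and CIC1 127 FPKM against 128 FPKM. NOP2, an rRNA methyltransferase, was 369.9 FPKM and 304 FPKM, EBP2 was 308 FPKM and 277 FPKM, and RLP7, which resembles the ribosomal protein Rpl7, was 395 FPKM and 349 FPKM.

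The Brix-domain genes of this group differed among themselves. Against the 1.85-fold of RPF1, RPF2, which brings the smallest ribosomal RNA into the particle, was 282 FPKM and 275 FPKM. SSF1 was 217 FPKM and 229 FPKM, but it has a near-identical copy, SSF2 (92.1% identity over 1362 coding bases), so its reads may be shared. BRX1, from the wider list, was 263 FPKM and 326 FPKM.

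The lowest ratios of the large-subunit group belonged to RIX1, NMD3 and SQT1. Whether ratios differ by stage of assembly was not tested. RIX1, of the complex that acts at the removal of an internal spacer, was 249 FPKM in wild type against 152 FPKM in the deletion strain (1.64-fold lower). NMD3, the adapter that carries large subunits through the nuclear pore, was 818 FPKM and 509 FPKM (1.61-fold lower), and SQT1, the dedicated chaperone of ribosomal protein Rpl10, was 1063 FPKM and 724 FPKM (1.47-fold lower). The GTPase gene NOG2 was 1395 FPKM and 1184 FPKM. NOG2 has 2 coding exons, and its intron holds the small nucleolar RNA gene SNR191 (4256 FPKM and 3877 FPKM), whose reads the counting may or may not have kept apart. MRT4, which resembles the stalk protein P0 and holds its place in the precursor, was 942 FPKM and 973 FPKM, and ALB1, a shuttling factor, was 381 FPKM and 409 FPKM. Over the 18 large-subunit genes the median log2 ratio was -0.01, with 9 higher and 9 lower and 0 past 2-fold. With equal protein-coding sums, 15 were higher and 3 lower, and 3 passed 2-fold upward. The quartiles were -0.19 and 0.23 for the small-subunit genes and -0.23 and 0.11 for the large-subunit genes, and the difference between these groups was not tested.

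Both box H/ACA genes were lower. NOP10, a small core subunit, was 3940.3 FPKM in wild type against 2826 FPKM in the deletion strain (1.39-fold lower). GAR1 was 2777 FPKM and 1425 FPKM, the lowest ratio of the set at 1.95-fold lower. By FPKM these were the most abundant members in both strains. Over the 39 members, shorter genes tended to have higher levels (r = -0.50 and rho = -0.43 between log2 mean level and log2 gene length). NOP10 has only 177 bases, and the part of length in its level was not tested. The particle's assembly factors in the wider list were far less abundant. NAF1 had the higher value in the deletion strain, at 54.7 FPKM in wild type against 96.4 FPKM, and SHQ1 was 96.8 FPKM against 96.3 FPKM. Of the unassigned members, RRP14 was 184 FPKM and 234 FPKM, RRT14 was 58.2 FPKM and 81.3 FPKM, and NOP13 was 149 FPKM and 135 FPKM.

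Some of the larger ratios belonged to genes near loci that differed strongly between the strains. NOP15 (chromosome XIV, 417826 to 418488) lies 1544 bases beyond the end of DBP2 (413639 to 416281), with CYB5 between them at 164 FPKM in wild type against 102.7 FPKM in the deletion strain. RPF1 (chromosome VIII, 281495 to 282382) lies 339 bases downstream of RTC3 on the same strand, and RTC3 was 32.7 FPKM and 818 FPKM. RPF1 in turn converges with GAR1 (282681 to 283298) across 298 bases, so that the second-highest and the lowest ratio of the set are neighbours on opposite strands. The part of these neighbours in the ratios was not tested. Across 69 pairs of a member and an adjacent gene with a ratio, 32 had the same direction, and Pearson's r between their log2 ratios was -0.04 and Spearman's rho -0.18. In 9 of the 69 pairs the adjacent gene was at least 2-fold higher or lower, against 19.8% of all genes compared. The pairs share libraries, and pairs of adjacent members enter both ways. UTP9 and RIX1, which follow each other on chromosome VIII with 237 bases between them, had ratios of 1.15-fold and 0.610 of wild type.

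The order of the members by level was largely kept. Across the 39 genes, log2 levels in the strains had Pearson's r = 0.94 and Spearman's rho = 0.89, and r was 0.93 over all 2211 genes, which share libraries and length correction and are not replicates. NOP10, GAR1 and NOG2 were the highest in both strains and URB2 the lowest in both. RIO2 moved from rank 8 to 20 and IMP3 from 32 to 17. Members with higher levels tended to have lower ratios (r = -0.38 between the log2 ratio and the log2 mean level, against -0.16 over all genes). By rank the members were close to all genes (rho = -0.29 against -0.26). With gene length, r of the log2 ratio was -0.17 and rho -0.28.

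As deposited, members with and without the promoter elements were found on both sides of wild type. The 23 members with a PAC match and a ratio had a median log2 ratio of 0.01, with 12 higher and 11 lower, and the 16 without one had 0.06, with 10 higher and 6 lower. With equal protein-coding sums these counts were 20 and 3 (median 0.48) with PAC and 12 and 4 (median 0.52) without it. As deposited, with RRPE the median was 0.05 over 25 genes, and without it 0.01 over 14. Among the sequences printed above, those of RPF1 and KRR1 both have RRPE upstream of PAC, and these genes stood at opposite ends of the order.

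The wider pathway was split in direction as deposited. Of 122 other ribosome biogenesis genes listed, 29 could be compared (10 small-subunit, 17 large-subunit and 2 box H/ACA). Of these, 13 had the higher and 16 the lower value in the deletion strain, and their median log2 ratio was -0.07. With equal protein-coding sums 22 were higher and 7 lower, with a median of 0.40, and 3 passed 2-fold upward. As deposited, at the 2-fold limit, 1 was higher and 0 were lower (8.86% and 10.9% of all genes). The gene past the limit was DBP6, a DEAD-box helicase of early large-subunit assembly, at 70.0 FPKM in wild type against 211 FPKM in the deletion strain (3.01-fold). At the other end stood NIP7, at 1122 FPKM and 582 FPKM, and DIM1, the dimethylase of small-subunit RNA, at 686 FPKM and 364 FPKM.

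The direction of single members depended on how the strains were scaled. With equal protein-coding sums, 32 of 39 members had the higher value in the deletion strain (69.8% of all genes), the median was 0.49 (0.38 over all genes), 5 members passed 2-fold upward (19.9% of all genes) and 0 downward (4.57%). The 5 were IMP3, RPF1, NOP15, MAK16 and KRI1. The members that stayed lower were GAR1, KRR1, RIX1, NMD3, SQT1, RIO2 and NOP10. They ranged from 0.710 of wild type (GAR1) to 0.992 (NOP10), and SQT1 (0.942) and RIO2 (0.961) were also close to wild type. The other 10 members that were lower as deposited turned higher under this scaling, among them LTV1, PWP2, NOP2 and NOG2. The distance of the members' median from that of all genes was 0.10 as deposited and 0.11 with equal sums. This distance could hardly change, because the scaling multiplies every deletion-strain value by the same factor.

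**Figure D4:**
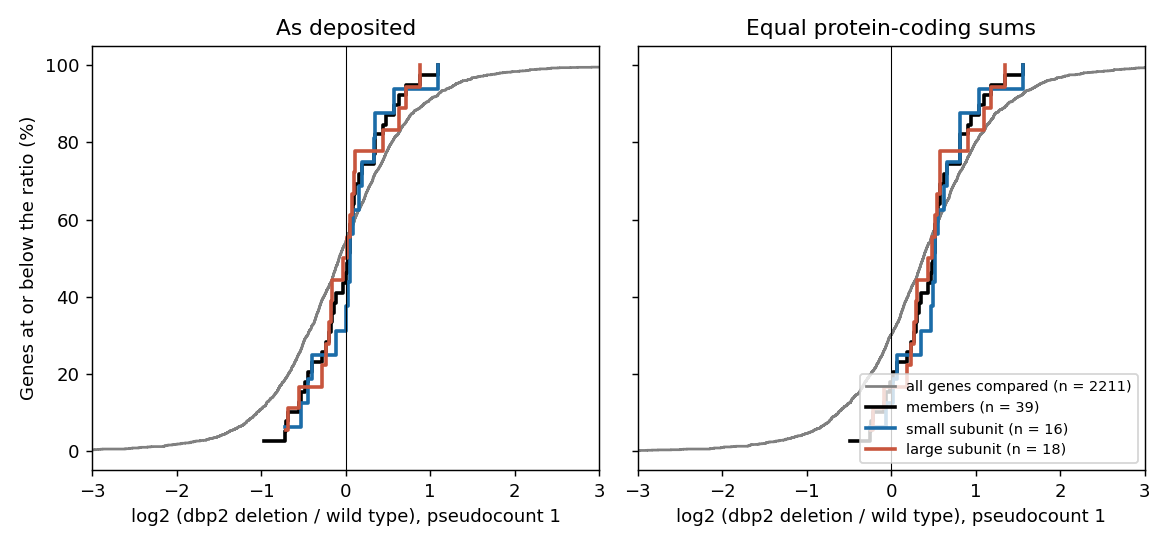
Cumulative share of genes (percent) at or below each log2 ratio of deletion strain to wild type, as deposited (left) and with equal protein-coding sums (right), for all 2211 genes compared (grey; the horizontal axis is cut at -3 and 3), the 39 members (black), the 16 small-subunit genes (blue) and the 18 large-subunit genes (red). The members' curves are steeper than that of all genes, and equal sums move the members' median from 0.03 to 0.49.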

How the data were processed

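Each strain had 1 deposited table of gene names and values. The deposited values were taken as FPKM. Per the submitters' processing notes, Cuffdiff 2.1.1 and the build sacCer3 were used, and fractional values with sums beyond the fixed total of CPM or TPM are at odds with counts and with those units. How reads were aligned, assigned to genes by strand, merged over replicates and scaled between strains was not given in the sources used here. FPKM are shares of a library, so a few very abundant genes can move all other values. Depth is unknown, and no counting interval was computed. Of 3146 rows, 2496 name 1 gene on 1 row, and the 2211 compared were above 0 in both strains with a mean of at least 1 FPKM. A pseudocount of 1 was added for log2 ratios, and folds are ratios of deposited values without it. With 1 value per strain no test was made.

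Coordinates (1-based) and promoter windows come from RefSeq R64, the assembly behind sacCer3. Near copies were sought with blastn 2.17.0. The motif scan found every PAC element planted in simulated sequences. Exact copies were planted and sought, so this checks the search code alone, and RRPE was not planted. Python 3.11.15, numpy 2.4.6, pandas 2.3.3, scipy 1.17.1 and matplotlib 3.10.9 were used. The members, the wider list and the motifs were chosen with earlier results of these data known. All members on 1 row could be named, and values were to be given for the 6 highest and 6 lowest ratios and for the named complexes. The limit of 1.2-fold, the range of 100 to 1000 FPKM, neighbouring genes and any other gene were chosen after values were seen. Alternatives were the scaling, the pseudocount, the filter, the fold limit and the rows used.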

Additional observations from a re-analysis of the deposited data

How the results depend on the processing

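With equal protein-coding sums, 5 members in place of 1 were at least 2-fold higher, and the median log2 ratio moved to 0.49 for all members, 0.52 for the small-subunit genes and 0.45 for the large-subunit genes, by the construction of that scaling. With a limit of 1.5-fold, 4 members were higher and 4 lower (18.6% and 23.7% of all genes). The same counts and medians stayed within 1.5 times or 0.1 (log2) of the reported values with pseudocounts of 0.1 and 10. They also did with equal medians, a factor of only 0.9948. They stayed within these limits without NOP15, RPF1 and GAR1 as well, an alternative chosen after seeing the data (large-subunit median -0.10). Other settings were no filter, a mean of at least 10 FPKM, and names on several rows summed or taken by their highest row. These could not change the member results, because each of the 39 members is on 1 row and above 10 FPKM in both strains. The sign of 10 of 39 single ratios differed with equal protein-coding sums, of 1 with equal medians and of 0 with either pseudocount. No paired analysis was possible because each strain has 1 deposited value per gene. For the same reason no replicate could be left out.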

Other observations

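PAC matches were also found upstream of genes outside the set. Of the genes compared that are not members, 78 had a PAC match in the same window, and their median log2 ratio was -0.09, with 35 higher and 43 lower in the deletion strain as deposited. With equal protein-coding sums 56 were higher and 22 lower (median 0.37), and 13 passed 2-fold upward and 2 downward. As deposited, the 2-fold limit was passed upward by 6 and downward by 5 of them, against 8.86% and 10.9% of all genes. With both PAC and RRPE there were 30 such genes, with a median of -0.16, of which 1 passed 2-fold upward and 3 downward (0.31, 2 and 1 with equal protein-coding sums). Of the 121 windows of the wider biogenesis list, 47.1% held PAC and 63.6% RRPE, including genes without a value in these tables.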
